A study of Mus musculus with 14 samples.

Results

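Kit, Flt3, Cd34, Procr, Slamf1, Hlf, Meis1, Myb, Gata2 and Mecom are genes by which blood stem and progenitor cells of mouse bone marrow are commonly recognised. They were taken by symbol from the deposited gene matrix and make up 10 of its 23441 genes, and 10 of the 55401 genes of the count files of the single samples. All 10 had enough reads to be tested, among 17671 genes tested in all.

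Haematopoietic stem cells sit at the top of blood formation, divide rarely and give rise to progenitors that divide often and become committed to the myeloid, lymphoid, erythroid or megakaryocyte lineage. They are kept in the marrow by contact with stromal, endothelial and fat-lineage cells, which supply the ligand of the receptor KIT and the chemokine CXCL12. Receptors and surface proteins such as KIT, CD34, EPCR and CD150 are used to sort these cells, while transcription factors such as HLF, MEIS1, MYB, GATA2 and EVI1 (the product of Mecom) set their self-renewal and the entry into lineages.

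RNA was sequenced from marrow plugs of the distal tibia, a site rich in bone marrow adipose tissue, of male C57BL6/SJL mice aged 24 weeks. The question was what loss of adipose triglyceride lipase (ATGL, encoded by Pnpla2, the enzyme that starts the release of stored fat) in bone marrow adipocytes (BMAds) does when food is plentiful and when it is short. Each sample pooled marrow from 2 mice, and spread was measured over these pools. The p-values below were taken over 14 such samples.

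BMAd-Pnpla2+/+ mice carried intact Pnpla2 and were fed ad libitum (AL, 4 samples) or kept on 30% caloric restriction (CR, 4 samples) for 6 weeks. In BMAd-Pnpla2-/- mice floxed Pnpla2 was deleted by a Cre that is read from the Adipoq gene after a recombinase made from the Osterix gene has turned it, and these mice were likewise fed AL (3 samples) or CR (3 samples). Deletion was therefore directed to BMAds, with a small subset of stromal cells also marked by this Cre, and the inserted cassette lowers adiponectin protein. Per the study's methods, mice of each genotype carried the recombinase and Cre cassettes, mostly on both alleles, and controls differed by the absence of floxed Pnpla2, so the cassettes are shared by all groups. The deletion was not directed to stem and progenitor cells themselves. Per the study's methods, CR food was given daily before the dark phase, so the amount and the time of feeding cannot be told apart.

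Unstranded gene read counts ranged from 18898324 to 21665553 per sample. Levels are given as CPM, counts scaled to the size of each library after TMM normalisation, and fold changes come from edgeR's quasi-likelihood test with Benjamini-Hochberg adjustment over all 17671 genes, with a call at an adjusted p (padj) under 0.05. The 3 BMAd-Pnpla2-/- CR libraries carried no strand information (50.1% to 50.5% of strand-assigned gene reads on the first strand, against 4.30% to 4.62% in the other 11), so all samples were compared on the count that ignores strand, and library type and the BMAd-Pnpla2-/- CR group cannot be told apart. Pnpla2, the targeted gene, stood at 300.7, 174, 199 and 189.5 CPM on AL and 804.5, 991, 1015 and 502 on CR in BMAd-Pnpla2+/+ mice, and 135, 170.1 and 131 on AL and 177, 219.5 and 267 on CR in BMAd-Pnpla2-/- mice. On the log2 scale CR against AL gave 1.94 ± 0.23 (SE; padj = 5.95e-04) in +/+ and 0.60 ± 0.26 (padj = 0.143) in -/- mice, and -/- against +/+ gave -1.90 ± 0.26 on CR (padj = 0.0386) and -0.57 ± 0.25 on AL (padj = 0.9996). Checked against its label as adipose tissue, the marrow held RNA of fat-lineage and of blood cells: 10 stromal and adipocyte genes summed to 4468 to 11522 CPM per sample, and 10 genes read broadly in leukocytes to 4213 to 7089 CPM.

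CR raised Kit, Flt3 and Hlf and lowered Myb, Cd34 and Meis1 in BMAd-Pnpla2+/+ mice, while Gata2, Mecom, Procr and Slamf1 did not pass the test. The promoters of Hlf, Myb and Kit, which had the largest changes there, and of Flt3, which passed in each genotype, are shown for that reason. The sequences are those of RefSeq on GRCm38.p6, read 5′ to 3′ on the strand of the gene, and cover the bases outside exons within 250 bases before the RefSeq start. Kit lay at chr5:75574737-75574915 (forward strand), Flt3 at chr5:147400490-147400739 (reverse), Hlf at chr11:90390918-90391167 (reverse) and Myb at chr10:21160985-21161234 (reverse). Capitals mark matches, on either strand, to the ETS core AGGAAG, the E-box CANNTG or the GC box GGGCGG.
Kit: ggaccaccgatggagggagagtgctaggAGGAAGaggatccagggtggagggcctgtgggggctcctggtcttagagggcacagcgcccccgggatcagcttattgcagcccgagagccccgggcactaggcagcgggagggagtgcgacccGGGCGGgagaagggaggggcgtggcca
Flt3: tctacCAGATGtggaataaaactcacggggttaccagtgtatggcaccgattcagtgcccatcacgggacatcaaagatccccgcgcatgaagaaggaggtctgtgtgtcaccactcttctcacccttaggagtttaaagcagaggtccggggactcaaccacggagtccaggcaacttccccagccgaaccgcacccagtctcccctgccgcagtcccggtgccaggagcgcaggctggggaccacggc
Hlf: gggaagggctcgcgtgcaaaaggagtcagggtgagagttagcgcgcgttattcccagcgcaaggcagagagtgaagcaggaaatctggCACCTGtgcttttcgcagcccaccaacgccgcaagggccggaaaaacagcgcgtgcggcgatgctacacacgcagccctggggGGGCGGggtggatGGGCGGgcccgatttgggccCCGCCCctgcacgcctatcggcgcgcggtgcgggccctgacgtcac
Myb: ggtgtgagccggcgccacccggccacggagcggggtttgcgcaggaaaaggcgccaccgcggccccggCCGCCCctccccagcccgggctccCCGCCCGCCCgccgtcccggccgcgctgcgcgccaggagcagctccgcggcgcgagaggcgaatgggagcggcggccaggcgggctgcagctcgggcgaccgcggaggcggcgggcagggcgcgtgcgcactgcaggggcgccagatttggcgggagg

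All 10 members matched a promoter window among the 32851 of RefSeq. Kit, Mecom and Gata2 had 2 windows listed, of which the first was used. That of Mecom (chr3:30509823-30510009) lies within the span of the gene given below, so it precedes an inner start. GC boxes were in the 250 bases before the start of 5 of the 10 members (Kit, Mecom, Gata2, Hlf and Myb), against 32.7% of all windows. The Hlf window held 3 of them between 79 and 46 bases before the start, and that of Myb held 3 between 182 and 154 bases before it, of which a pair shared letters. The ETS core was in 3 members (Kit, Cd34 and Slamf1), against 29.5% of all windows, and lay 222 bases before the start of Kit. The E-box was in 6 members (Flt3, Mecom, Meis1, Procr, Slamf1 and Hlf), against 66.2% of all windows. The motif TAACNG, which MYB binds, was in Cd34 and Meis1, against 19.8% of all windows. No member had AGATAA, the letters of the blood zinc finger family of Gata2 (9.99% of all windows). None had TGACAG, those of the family of Meis1 (15.9% of all windows), or TTANNTAA, those of the PAR bZIP family of Hlf (5.43% of all windows), which says only that these letters are not in these windows. The 250 bases were 81.2% G or C in Myb, 70.8% in Kit, 67.2% in Hlf and 59.2% in Flt3, beside a median of 52.4% over all windows.

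**Figure D1:**
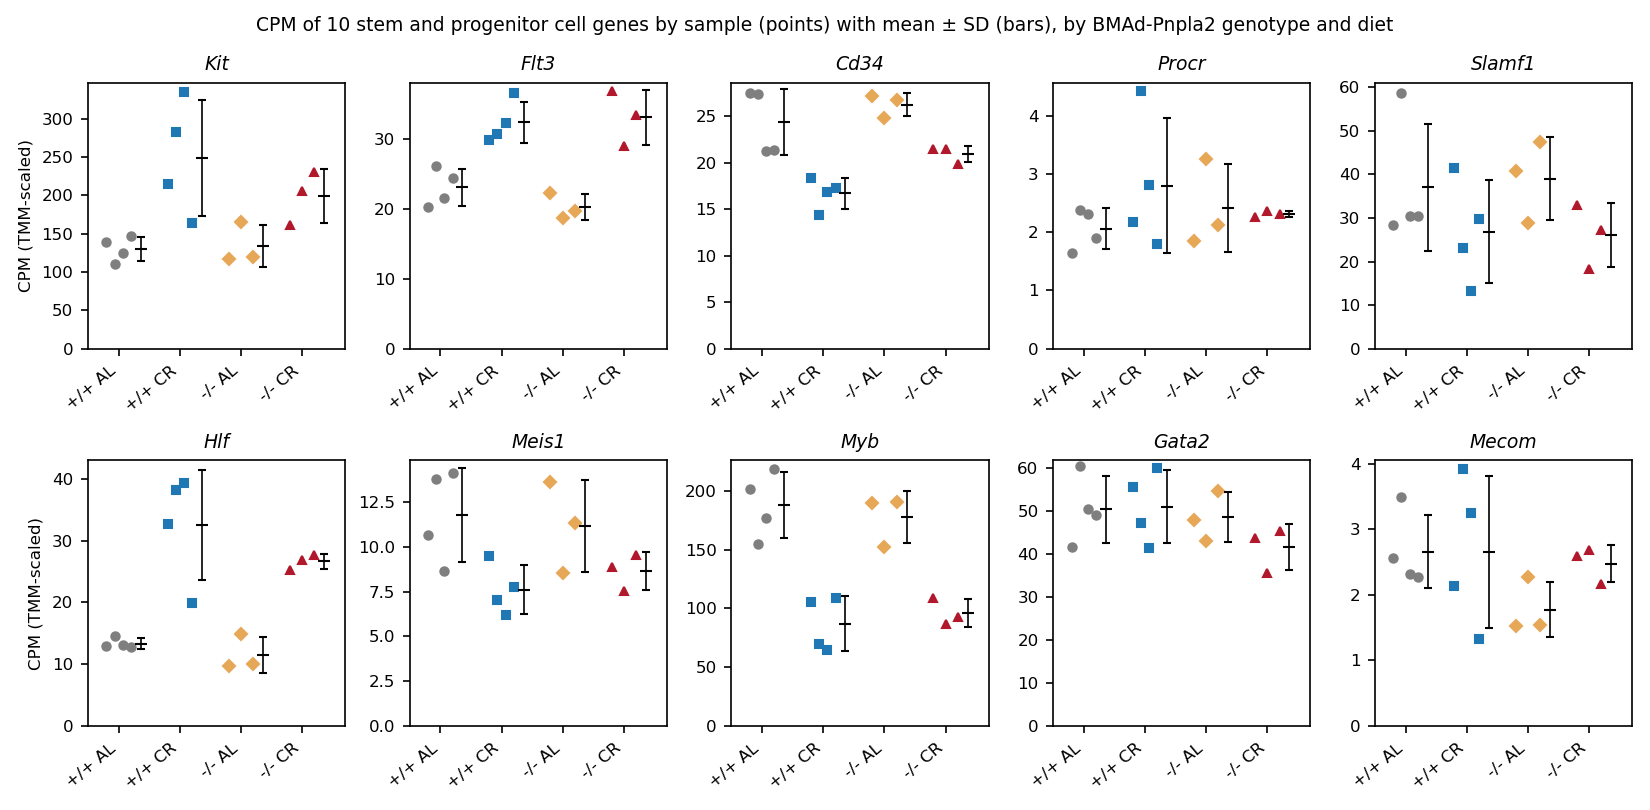
TMM-scaled CPM (vertical axis from 0) of the 10 genes in each of the 14 samples (points), with the mean ± SD of each of the 4 groups of genotype and diet. Kit, Flt3 and Hlf lie higher and Myb and Cd34 lower under CR in BMAd-Pnpla2+/+ mice with no overlap of the groups, while Gata2 stays between 35.4 and 60.5 CPM throughout.

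Kit, on chromosome 5 (chr5:75574916-75656722 of GRCm38, forward strand, 21 merged exons), encodes the receptor for stem cell factor, which stem cells and most early progenitors carry. Kit stood at 139, 111, 124 and 147 CPM on AL and 214, 282, 335 and 163 on CR in BMAd-Pnpla2+/+ mice, and 116, 165 and 120.0 on AL and 161, 206 and 229.7 on CR in BMAd-Pnpla2-/- mice. In +/+ mice every CR sample was above every AL sample, whereas in -/- mice 1 AL sample (165) lay above the lowest CR sample (161). CR raised Kit in +/+ mice 1.91-fold, with a log2 fold change of 0.93 ± 0.20 (padj = 0.00750). In -/- mice the log2 fold change was 0.57 ± 0.23, which did not pass (padj = 0.121, with an unadjusted p under 0.05).

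Flt3 (chr5:147330741-147400489, reverse strand, 25 exons) encodes the receptor for FLT3 ligand and marks multipotent and early lymphoid progenitors as well as dendritic cell precursors. Flt3 was 20.4, 26.2, 21.6 and 24.5 CPM on AL and 30.0, 30.8, 32.4 and 36.6 on CR in BMAd-Pnpla2+/+ mice, and 22.3, 18.7 and 19.8 on AL and 37.0, 29.0 and 33.5 on CR in BMAd-Pnpla2-/- mice. All 7 CR samples lay above all 7 AL samples. The rise was 1.40-fold in +/+ (log2 0.49 ± 0.11, padj = 0.00973) and 1.64-fold in -/- mice (log2 0.71 ± 0.13, padj = 0.00951).

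Cd34 (chr1:194938819-194961279, forward strand, 7 exons) encodes a sialomucin of the surface of progenitors, and of endothelial cells. Cd34 was 27.5, 27.4, 21.3 and 21.4 CPM on AL and 18.4, 14.4, 16.9 and 17.3 on CR in BMAd-Pnpla2+/+ mice, and 27.2, 24.8 and 26.8 on AL and 21.5, 21.5 and 19.9 on CR in BMAd-Pnpla2-/- mice. CR samples lay below AL samples within each genotype, without overlap. The log2 fold change was -0.55 ± 0.11 in +/+ mice (padj = 0.00620) and -0.33 ± 0.13 in -/- mice (padj = 0.115), where the call depended on the model and on the count used. On the deposited matrix, which holds strand-specific counts for 11 samples and strand-free counts for the 3 of BMAd-Pnpla2-/- CR, it was -0.56 (padj = 0.00453) in -/- mice. That value sets strand-specific AL counts against strand-free CR counts and does not measure diet alone. The antisense gene Gm16897 shares 148 exonic bases with Cd34, and its strand-free count was 84.4% of its strand-specific count over the 11 stranded libraries.

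Procr and Slamf1 encode surface proteins by which stem cells are sorted: EPCR, the receptor of protein C, and CD150, a receptor of the SLAM family that lymphocytes and megakaryocyte progenitors also carry. Procr (chr2:155751117-155755471, forward strand, 3 exons) was near the low end of detection, with 34 to 97 reads a sample. Procr stood at 1.64, 2.37, 2.32 and 1.90 CPM on AL and 2.18, 4.42, 2.80 and 1.79 on CR in BMAd-Pnpla2+/+ mice, and 1.85, 3.26 and 2.12 on AL and 2.27, 2.37 and 2.30 on CR in BMAd-Pnpla2-/- mice. The groups overlapped, and the log2 fold change under CR was 0.45 ± 0.28 in +/+ (padj = 0.238; 0.14 without CR replicate 2) and -0.06 ± 0.32 in -/- mice (padj = 0.923).

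Slamf1 (chr1:171767127-171801184, forward strand, 7 exons) had the widest range of the 10 members over the 14 samples, 4.45-fold from lowest to highest. Slamf1 was 28.4, 58.7, 30.5 and 30.5 CPM on AL and 41.5, 23.0, 13.2 and 29.7 on CR in BMAd-Pnpla2+/+ mice, and 40.8, 28.7 and 47.5 on AL and 32.9, 18.4 and 27.2 on CR in BMAd-Pnpla2-/- mice. Means were lower under CR in each genotype but the groups overlapped. Its log2 fold change was -0.46 ± 0.33 in +/+ (padj = 0.307) and -0.58 ± 0.38 in -/- mice (padj = 0.343).

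Among the transcription factors, Hlf (chr11:90336536-90390895, reverse strand, 8 exons) encodes a PAR bZIP factor that keeps stem cells quiescent. Hlf was 12.9, 14.6, 13.02 and 12.8 CPM on AL and 32.7, 38.1, 39.3 and 19.9 on CR in BMAd-Pnpla2+/+ mice, and 9.63, 14.8 and 9.995 on AL and 25.3, 26.9 and 27.7 on CR in BMAd-Pnpla2-/- mice. Every CR sample lay above every AL sample across genotypes. Hlf had the largest rise of the 10 members, 2.44-fold in +/+ (log2 1.29 ± 0.19, padj = 0.00152) and 2.32-fold in -/- mice (log2 1.21 ± 0.22, padj = 0.00951).

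Myb (chr10:21124935-21160984, reverse strand, 15 exons) encodes a factor needed for the division and supply of immature blood cells of all lineages. Myb was 202, 154, 177 and 218 CPM on AL and 105, 69.5, 64.9 and 109 on CR in BMAd-Pnpla2+/+ mice, and 189, 152 and 191 on AL and 109, 86.4 and 92.5 on CR in BMAd-Pnpla2-/- mice. All 7 CR samples were below all 7 AL samples. The log2 fold change was -1.11 ± 0.17 in +/+ (padj = 0.00185) and -0.89 ± 0.20 in -/- mice (padj = 0.0168), so that CR levels were 0.464 and 0.541 of AL levels. The antisense gene Gm26577 covers 559 of its exonic bases, and its strand-free count was 76.8% of the strand-specific count over the 11 stranded libraries. Counted with strand in those libraries, the log2 fold change in +/+ mice was -1.08 (padj = 0.00590). In -/- mice the call was lost when AL replicate 1, AL replicate 3, CR replicate 2 or CR replicate 3 was left out, with padj up to 0.0711.

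Meis1 (chr11:18879817-19018985, reverse strand, 11 exons) encodes a TALE homeobox factor that maintains stem cells. Meis1 was 10.7, 13.8, 8.65 and 14.1 CPM on AL and 9.48, 7.02, 6.23 and 7.76 on CR in BMAd-Pnpla2+/+ mice, and 13.6, 8.53 and 11.4 on AL and 8.91, 7.52 and 9.56 on CR in BMAd-Pnpla2-/- mice. In each genotype 1 AL sample lay among the CR samples. Meis1 passed in +/+ mice (log2 -0.63 ± 0.19, padj = 0.0307) but not in -/- mice (-0.37 ± 0.22, padj = 0.301), and the +/+ call was lost when AL replicate 2, AL replicate 4, CR replicate 2 or CR replicate 3 was left out, with padj up to 0.0939. Gm37818 on the same strand shares 1029 exonic bases with Meis1 and the antisense gene Gm16140 shares 896, and its strand-free count was 101% of the strand-specific count in the 11 stranded libraries.

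Gata2 and Mecom did not pass in either genotype. Gata2 (chr6:88193891-88207032, forward strand, 7 exons), a zinc finger factor needed for stem cell survival and for the mast cell line, was 41.5, 60.5, 50.4 and 48.9 CPM on AL and 55.5, 47.0, 41.2 and 59.9 on CR in BMAd-Pnpla2+/+ mice, and 47.9, 42.9 and 54.5 on AL and 43.8, 35.4 and 45.3 on CR in BMAd-Pnpla2-/- mice. Its groups overlapped, with log2 fold changes of 0.02 ± 0.14 in +/+ (padj = 0.937) and -0.22 ± 0.16 in -/- mice (padj = 0.397). Mecom (chr3:29951296-30548008, reverse strand, 24 exons), whose product EVI1 sustains stem cells, had only 25 to 86 reads a sample. It was 2.56, 3.48, 2.32 and 2.28 CPM on AL and 2.13, 3.92, 3.25 and 1.32 on CR in BMAd-Pnpla2+/+ mice, and 1.52, 2.26 and 1.53 on AL and 2.58, 2.68 and 2.16 on CR in BMAd-Pnpla2-/- mice. The log2 fold change of Mecom under CR was 0.00 ± 0.29 in +/+ (padj = 0.993) and 0.48 ± 0.35 in -/- mice (padj = 0.394), with overlapping groups in each.

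**Figure D2:**
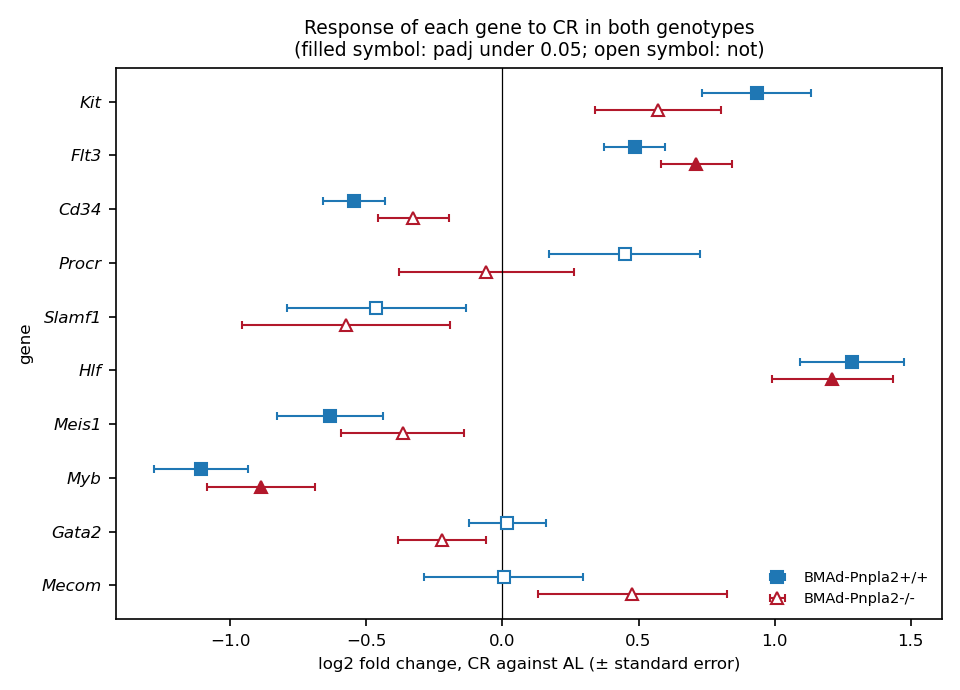
Log2 fold change of CR against AL (horizontal axis) of the 10 genes in BMAd-Pnpla2+/+ and BMAd-Pnpla2-/- mice, with bars for the standard error and filled symbols for padj under 0.05. Hlf and Flt3 are filled to the right and Myb to the left in each genotype, while Kit, Cd34 and Meis1 are filled in BMAd-Pnpla2+/+ alone, a difference that did not pass its own test.

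Counted together, 6 of the 10 members passed in BMAd-Pnpla2+/+ mice, against 26.0% of all genes tested. Of these, 3 were higher (15.1% of all genes) and 3 lower (10.9% of all genes) under CR. Hlf and Myb also had an absolute log2 fold change over 1, which 9.28% of all genes combined with a pass. The groups did not overlap in 5 members, beside 22.8% of all genes. The members' median log2 fold change was 0.01, beside 0.00 over all genes, and the median of its absolute value was 0.52, beside 0.32.

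In BMAd-Pnpla2-/- mice 3 members passed (Hlf and Flt3 higher, Myb lower), against 11.6% of all genes. Higher calls were made for 6.04% and lower calls for 5.57% of all genes, and Hlf alone passed with an absolute log2 fold change over 1, as did 3.53% of all genes. The groups of 4 members did not overlap, where 37.9% of all genes did the same with 3 samples a group. The members' median log2 fold change was -0.14, beside 0.05 over all genes. An unadjusted p under 0.05 was found for 5 of the 10 members, beside 5145 of the 17671 genes tested.

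Averaged over both genotypes, 6 members passed, against 34.7% of all genes: Kit (log2 0.75 ± 0.15, padj = 0.00290), Flt3 (0.60 ± 0.09, padj = 4.12e-04) and Hlf (1.25 ± 0.15, padj = 1.33e-04) rose, and Cd34 (-0.44 ± 0.09, padj = 0.00239), Myb (-0.997 ± 0.13, padj = 2.78e-04) and Meis1 (-0.50 ± 0.15, padj = 0.0194) fell. Over all genes 19.6% were called higher and 15.1% lower, and 7.35% were called with an absolute log2 fold change over 1, as Hlf was. Flt3, Hlf and Myb were the 3 members whose 7 CR samples did not overlap their 7 AL samples, as in 7.98% of all genes. Slamf1 did not pass (-0.52 ± 0.25, padj = 0.126), and without BMAd-Pnpla2+/+ CR replicate 1 it did (-0.71, padj = 0.0320). Meis1 was lost without BMAd-Pnpla2-/- AL replicate 1 (padj = 0.0540) or BMAd-Pnpla2-/- CR replicate 2 (padj = 0.0523).

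Genotype made no detectable difference to any member at this number of samples. On AL no member passed with edgeR or DESeq2, none had an unadjusted p under 0.05, and 0.0% of all genes were called by edgeR, which gave 700 genes an unadjusted p under 0.05, where DESeq2 called 17. Log2 fold changes of -/- against +/+ on AL ran from -0.58 to 0.23. The lowest was that of Mecom (-0.58 ± 0.33, padj = 0.9996), whose -/- samples lay at 1.52 to 2.26 CPM, below all +/+ samples at 2.28 to 3.48 CPM. On CR no member passed with either tool, and 0.0113% of all genes were called by edgeR, or 2 genes, where DESeq2 called 1558. Without BMAd-Pnpla2+/+ CR replicate 4 edgeR called 2112 genes there, and still no member. With all samples, Cd34 alone of the members had an unadjusted p under 0.05 on CR (log2 0.33 ± 0.12, padj = 0.144). Its -/- samples lay at 19.9 to 21.5 CPM and its +/+ samples at 14.4 to 18.4 CPM. Over all genes, edgeR gave 4095 an unadjusted p under 0.05 there. Kit was -0.32 ± 0.22 (padj = 0.387), Hlf -0.29 ± 0.20 (padj = 0.409) and Myb 0.14 ± 0.18 (padj = 0.679) in that comparison. With 1 sample left out Kit ran from -0.48 (without +/+ CR replicate 4) to -0.15 (without +/+ CR replicate 3) and Hlf from -0.46 to -0.19 on leaving out the same samples, with padj no lower than 0.101 and 0.0582.

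The genotype by diet interaction, the difference of the CR responses, was called for 0.0% of all genes by edgeR, with 1836 genes at an unadjusted p under 0.05, and for 42 genes by DESeq2. Neither tool called a member, and no member had an unadjusted p under 0.05 with edgeR. It was -0.36 ± 0.31 for Kit (padj = 0.671), 0.22 ± 0.17 for Cd34 (padj = 0.652), 0.27 ± 0.30 for Meis1 (padj = 0.750), 0.23 ± 0.17 for Flt3 (padj = 0.640), 0.22 ± 0.26 for Myb (padj = 0.765) and -0.07 ± 0.29 for Hlf (padj = 0.941). The passes of Kit, Cd34 and Meis1 in +/+ mice alone therefore do not show that their responses differed between genotypes. Each of these comparisons shares samples with the diet comparisons above.

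The order of the members by level, compared per length as CPM per kilobase of merged exons, differed between the diets at its top. In BMAd-Pnpla2+/+ AL Myb led with 21.01 ± 3.14 (SD, n = 4), followed by Kit at 14.6 ± 1.78 and Gata2 at 9.32 ± 1.45. Slamf1 (6.01 ± 2.35), Flt3 (3.75 ± 0.427) and Cd34 (3.34 ± 0.486) came next, then Hlf (2.00 ± 0.129), Meis1 (1.12 ± 0.249), Procr (1.01 ± 0.172) and Mecom (0.214 ± 0.0453). These strand-free levels hold 84.4% of the strand-specific reads of Cd34 and 76.8% of those of Myb, and 99.3% to 102% of those of the other members, over the stranded libraries. On strand-specific counts, compared after the data were seen, Cd34 (3.88 ± 0.398, n = 4) stood before Flt3 (3.57 ± 0.412, n = 4), with overlapping ranges. Neighbours whose sample ranges overlapped on the strand-free counts were Gata2 with Slamf1, Flt3 with Cd34 and Meis1 with Procr.

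In BMAd-Pnpla2+/+ CR Kit led with 27.9 ± 8.46 (SD, n = 4) CPM per kilobase, above Myb at 9.75 ± 2.58, which overlapped Gata2 at 9.44 ± 1.56. Flt3 (5.25 ± 0.478), Hlf (4.86 ± 1.33) and Slamf1 (4.36 ± 1.93) overlapped one another in that order, and Mecom (0.214 ± 0.0930) was again the lowest. In BMAd-Pnpla2-/- AL the ranges of Myb (19.8 ± 2.48, n = 3) and Kit (15.02 ± 3.05, n = 3) overlapped, but on strand-specific counts Myb (24.9 ± 3.26, n = 3) stood above Kit (14.2 ± 2.97, n = 3) without overlap. Myb and Gata2 in BMAd-Pnpla2+/+ CR overlapped on strand-specific counts too. In BMAd-Pnpla2-/- CR Kit (22.3 ± 3.94, n = 3) stood above Myb (10.7 ± 1.30, n = 3) without overlap.

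Ratios taken within a library do not depend on scaling. The reads of Kit per read of Myb were 0.688, 0.718, 0.705 and 0.673 on AL and 2.04, 4.06, 5.16 and 1.502 on CR in BMAd-Pnpla2+/+ mice, and 0.614, 1.09 and 0.630 on AL and 1.48, 2.39 and 2.48 on CR in BMAd-Pnpla2-/- mice. Every CR library thus held more reads of Kit than of Myb, and 6 of 7 AL libraries fewer. Counted with strand, the ratio was lower, at 0.521 to 0.566 on AL and 1.12 to 3.77 on CR in BMAd-Pnpla2+/+ mice. It was 0.459 to 0.828 on AL in BMAd-Pnpla2-/- mice, so that all 7 AL libraries held fewer reads of Kit than of Myb. Over the stranded libraries the strand-free count was 76.8% of the strand-specific count for Myb and 100% for Kit. The part of the antisense overlap at Myb in this was not tested. The ratio of Hlf to Myb had a median of 0.0690 on AL and 0.430 on CR in BMAd-Pnpla2+/+ mice, and 0.0524 on AL and 0.299 on CR in BMAd-Pnpla2-/- mice. Flt3 to Cd34 ran from 0.740 to 1.14, 1.63 to 2.15, 0.738 to 0.820 and 1.35 to 1.72 in the same order, so that every CR library lay above every AL library.

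**Figure D3:**
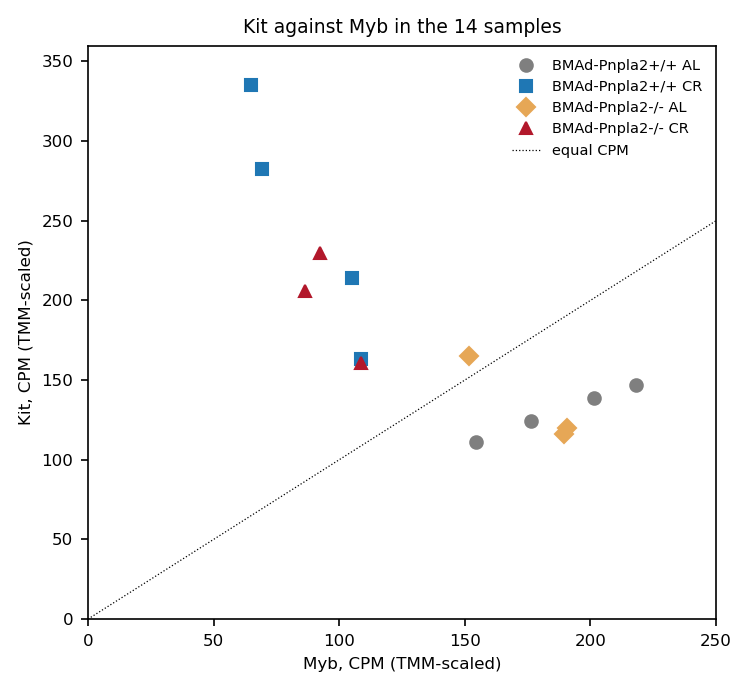
CPM of Kit (vertical axis) against CPM of Myb (horizontal axis) in the 14 samples, marked by group, with a dotted line where the levels are equal. The 7 CR samples lie on the Kit side of the line, and 6 of the 7 AL samples lie on the Myb side.

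Within BMAd-Pnpla2+/+ CR the samples kept one order across several genes, with replicate 3 highest, then 2, 1 and 4, for Kit, Hlf and Pnpla2, and the reverse for Myb and Gata2. Replicate 4, with 163 CPM of Kit and 19.9 CPM of Hlf, lay nearest to the AL samples. The summed CPM of the 10 stromal and adipocyte genes in these samples was 7491, 11522, 10604 and 5982, and that of 12 endothelial genes 1148, 1810.4, 1551 and 889.6, highest in replicates 2 and 3 and lowest in replicate 4. Genes of dividing cells ran the other way, at 2521, 1407, 1085 and 3331 CPM summed over 8 genes, as did the 10 genes read broadly in leukocytes at 5317, 4736, 4213 and 5615 CPM. On AL in BMAd-Pnpla2-/- mice, replicate 2 was highest for Kit (165 CPM), Hlf (14.8 CPM) and the stromal and adipocyte sum (7410.2 CPM, against 4468 and 4867). The part of cell makeup in the members' values was not tested, and in bulk marrow fewer cells of a type and less RNA per cell cannot be told apart.

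**Figure D4:**
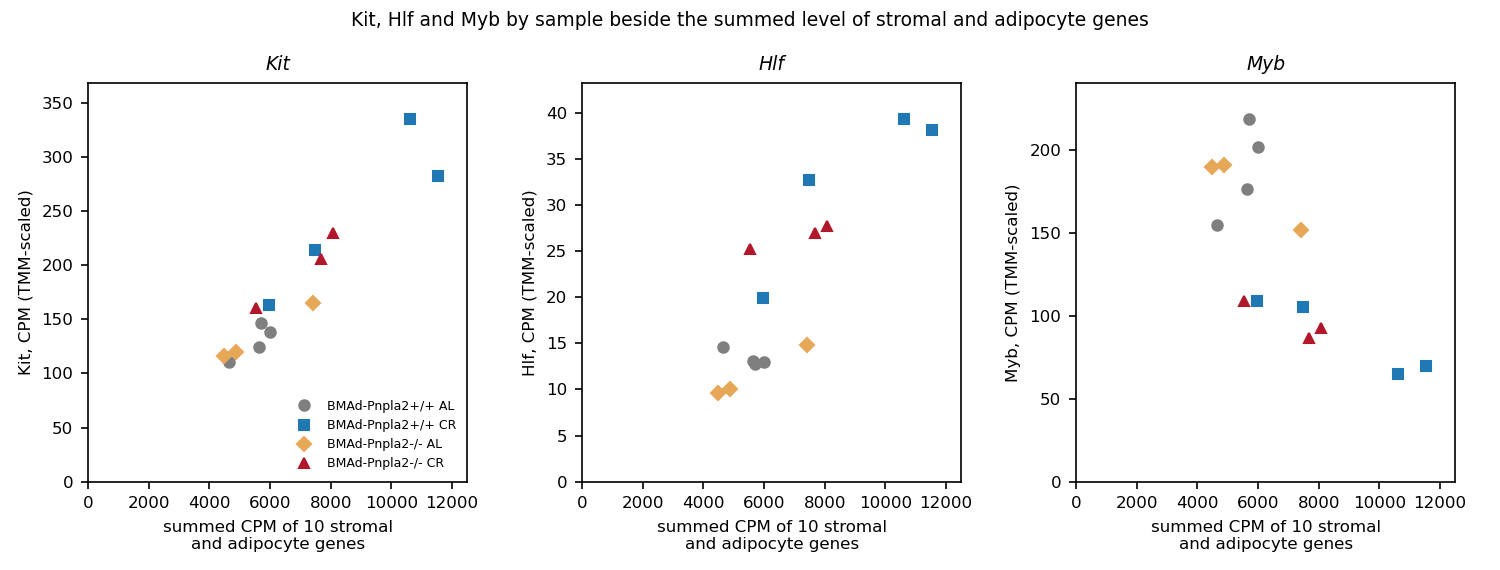
CPM of Kit, Hlf and Myb (vertical axes, 3 panels) against the summed CPM of 10 stromal and adipocyte genes (horizontal axis) in the 14 samples, marked by group. BMAd-Pnpla2+/+ CR replicates 2 and 3 lie furthest right, at 11522 and 10604, with the highest Kit and Hlf and the lowest Myb. The other CR samples have sums of 5542 to 8079, and all 7 CR samples lie above the AL samples in Hlf and below them in Myb.

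Some members, Kit, Cd34 and Gata2 among them, are also read in cells other than stem and progenitor cells. The part of other cells, and of the time of feeding, in the rise of Hlf was not tested. Of the defining proteases of connective tissue mast cells, which carry KIT and GATA2, Tpsab1 was at 0 in all 14 samples, and Mcpt4, Tpsb2 and Cma1 did not exceed 3, 5 and 9 reads. The other 6 genes of the mast cell and basophil list were read more. Their highest sample counts were 440 for Cpa3, 231 for Ms4a2, 126 for Fcer1a, 2892 for Hdc, 1233 for Mcpt8 and 3139 for Prss34. The 10 mast cell and basophil genes summed to 271 to 418 CPM on AL and 101 to 245 CPM on CR in BMAd-Pnpla2+/+ mice, and to 236 to 421 CPM on AL and 110.0 to 184 CPM on CR in BMAd-Pnpla2-/- mice. The part of these cells in the values of Kit and Gata2 was not tested. Of the 6 tested, 1 fell in each genotype, Hdc, which encodes histidine decarboxylase (log2 -1.30, padj = 0.00410 in +/+, and -1.56, padj = 0.00951 in -/- mice). Cpa3, the mast cell carboxypeptidase, had the highest value of that list, with -0.26 in +/+ (padj = 0.548). Of 12 endothelial genes, 8 rose and none fell in +/+ mice (median log2 0.76), and none passed in -/- mice (median 0.39). Over all genes, 15.1% were called higher and 10.9% lower in +/+ mice, and 6.04% and 5.57% in -/- mice. Robo4, an endothelial guidance receptor, stood at 1.16 (padj = 0.0111) in +/+, and the adhesion protein gene Pecam1 at 0.14 (padj = 0.450). Cd34, which endothelial cells also read, was lower under CR.

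A further 24 genes used to recognise stem cells were also counted. In BMAd-Pnpla2+/+ mice 5 were higher and 6 lower under CR, beside 15.1% and 10.9% of all genes, and the list's median was -0.16 on the log2 scale. In BMAd-Pnpla2-/- mice none was higher and 1 lower, beside 6.04% and 5.57% of all genes, and the median was -0.11. Prdm16, a transcription regulator needed to maintain stem cells, had the highest value in +/+ mice (1.25 ± 0.32, padj = 0.0160), and 0.72 in -/- mice (padj = 0.225). Mycn, a MYC family factor of dividing progenitors, had the lowest (-0.85 ± 0.27, padj = 0.0324), with -0.63 in -/- mice (padj = 0.192).

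No gene of the lists for committed progenitors was called higher under CR, beside 15.1% of all genes in +/+ and 6.04% in -/- mice. Lower calls were made for 10.9% and 5.57% of all genes. Of 10 lymphoid progenitor genes 5 fell in each genotype, with median log2 fold changes of -2.24 in +/+ and -2.20 in -/- mice. Rag1, which cuts DNA to assemble antigen receptors, fell the furthest (-6.83, padj = 8.97e-05 in +/+, and -5.91, padj = 0.00180 in -/- mice), while the B-lineage factor Ebf1 was at 0.21 in +/+ mice (padj = 0.611). Flt3, which early lymphoid progenitors carry, rose in the same samples. Of 10 myeloid progenitor and granule genes 7 fell in +/+ and 3 in -/- mice, with medians of -0.48 and -0.44. Prtn3, the granule protease proteinase 3, was lowest (-0.83, padj = 0.0112 in +/+) and the repressor Gfi1 highest (-0.25, padj = 0.178). Of 10 erythroid and megakaryocyte genes 3 fell in +/+ mice (median -0.66) and none passed in -/- mice (median -0.35), with the erythroid factor Klf1 lowest (-0.94, padj = 0.116 in +/+) and the erythropoietin receptor Epor highest (-0.33, padj = 0.381).

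Of 10 genes read broadly in leukocytes 6 fell in +/+ and 5 in -/- mice, with medians of -0.36 and -0.45. Over all genes 10.9% were called lower in +/+ and 5.57% in -/- mice. Lcp1, an actin-bundling protein of leukocytes, had the lowest value (-0.54, padj = 0.0103 in +/+) and Laptm5, a lysosomal protein of blood cells, the highest (-0.11). Of 8 proliferation genes 4 fell in +/+ mice (median -0.83) and none passed in -/- mice (median -0.26). Top2a, the topoisomerase of dividing cells, was lowest (-1.05, padj = 0.0212 in +/+) and Ccnb1, the mitotic cyclin, highest (-0.77, padj = 0.0748). Myb, read most in dividing progenitors, and Meis1 fell in +/+ mice beside these lists, whereas Kit, Flt3 and Hlf rose.

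The ligands of the receptors were measured in the same marrow. Kitl, the ligand of KIT made by stromal and endothelial cells, rose in +/+ (log2 0.92 ± 0.20, padj = 0.00861) and in -/- mice (1.03 ± 0.24, padj = 0.0186), while Flt3l was at 0.24 (padj = 0.253) and 0.30 (padj = 0.283). Kitl and Flt3l are given because they are the ligands of KIT and FLT3. Of the 7 genes of the ligand list that were tested 3 rose in +/+ and 1 in -/- mice, with medians of 0.65 and 0.30. Over all genes 15.1% were called higher in +/+ and 6.04% in -/- mice. Thpo, which encodes thrombopoietin, had the highest value (1.79, padj = 0.0291 in +/+, and 1.24, padj = 0.283 in -/- mice) on at most 41 reads a sample. Of 10 stromal and adipocyte genes 6 rose in +/+ and 3 in -/- mice, beside the same shares of all genes, with medians of 0.79 and 0.62. Adiponectin (Adipoq) stood at 2.27 (padj = 0.00973) in +/+ and 2.31 (padj = 0.0306) in -/- mice, and Cxcl12, the chemokine that holds stem cells in the marrow, was lowest at 0.47 (padj = 0.121) in +/+ mice. No gene of these lists passed in either genotype comparison or in the interaction.

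**Figure D5:**
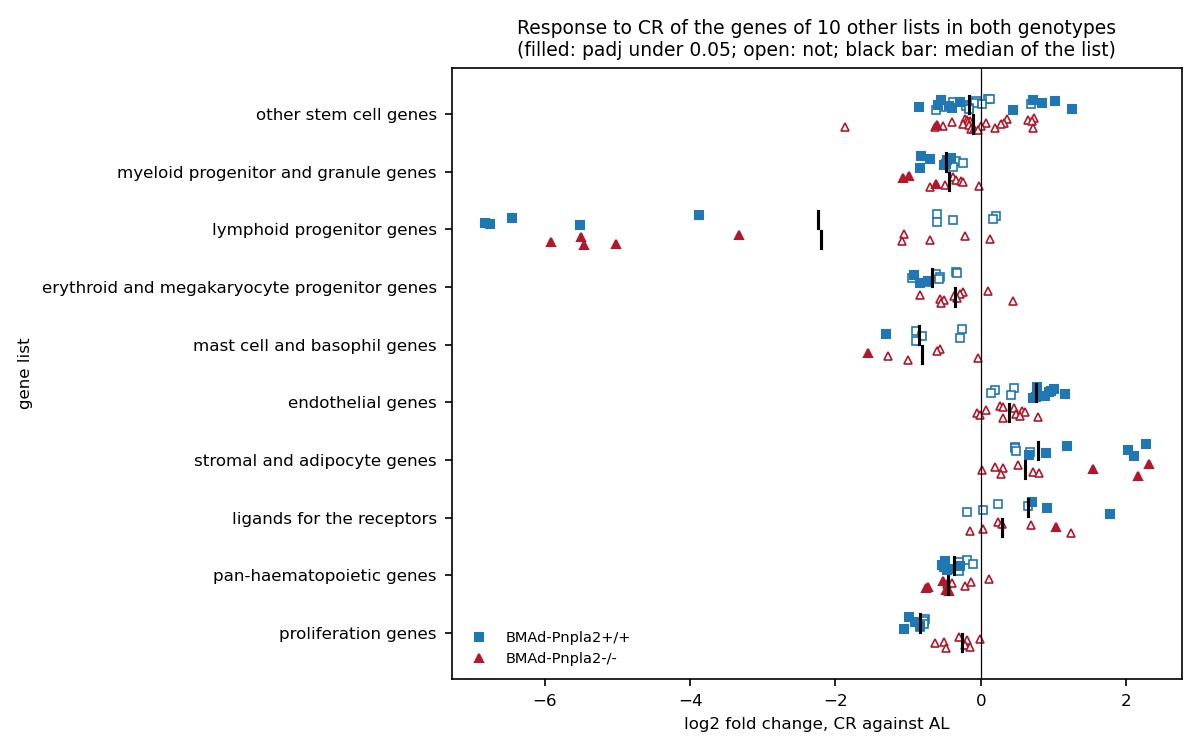
Log2 fold change of CR against AL (one point per gene) for the genes of 10 lists in BMAd-Pnpla2+/+ and BMAd-Pnpla2-/- mice, with a bar at each list's median. The medians of the stromal, endothelial and ligand lists lie above 0 in each genotype (0.30 to 0.79), and that of the lymphoid list lies lowest (-2.24 and -2.20).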

How the data were processed

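RNA of 14 samples of distal tibial marrow, each pooled from 2 mice by the authors, was sequenced as paired reads. Per the labels, read quality was checked with FastQC 0.11.9 and reads were aligned to mm10 with STAR; the STAR version and the annotation are not given in the sources used here, and the submitters' notes also name DESeq2. The deposited values are raw read counts per gene, without strand and for each strand, in 1 file per sample, plus 1 matrix of all samples. That matrix holds the reverse-strand count of 11 samples and the strand-free count of the 3 BMAd-Pnpla2-/- CR samples, so the strand-free counts of the single files were used for all. Reads not assigned to a gene (21.1% to 25.6% of 25282327 to 27475056 read pairs) were left out.

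Counts were filtered with filterByExpr over the 4 groups, leaving 17671 genes, scaled by TMM and tested with edgeR 4.0.16 (quasi-likelihood, robust, group means of all 14 samples, limma 3.58.1) in R 4.3.3, with Benjamini-Hochberg adjustment over all genes, a threshold of 0.05 and, for CPM on the log scale, a prior count of 2. The method was tested on simulated data (seed 11). DESeq2 1.42.0 was an alternative. Others were the deposited matrix, reverse-strand counts, size factors of DESeq2, total-count scaling, no filter, only the groups compared, a replicate block and each sample left out. Positions and exon lengths come from GENCODE M21 on GRCm38, which held 55141 of the 55401 gene identifiers; tables and plots were made with Python 3.11.15, pandas 2.3.3 and matplotlib 3.10.9.

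The members and the gene lists were chosen with earlier results of these data known. All 10 members are named, and from each list the genes with the highest and the lowest log2 fold change under CR in BMAd-Pnpla2+/+ mice, except 1 gene of the ligand list that is not reported here. Reads carry no molecular identifiers, and precision rests on 3 or 4 samples a group. Columns of values not mapped to a sample numbered 0.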

Additional observations from a re-analysis of the deposited data

Results flagged for a closer look

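In BMAd-Pnpla2+/+ AL, replicate 2 stood apart from the other 3 samples for Slamf1, at 58.7 CPM against 28.4 to 30.5 CPM. Its gap to the next sample was 0.933 of the range of the group. The same replicate stood apart for Hlf, at 14.6 CPM against 12.8 to 13.02 CPM, with a gap of 0.853 of the range. The gap was examined in 22 checks, for the 10 members and Pnpla2 in each BMAd-Pnpla2+/+ group of 4 samples. Chance alone marks about 1 in 20 such checks, which share their samples. The smaller BMAd-Pnpla2-/- groups were not examined. Without this sample the log2 fold change under CR in BMAd-Pnpla2+/+ mice was -0.15 for Slamf1 (padj = 0.760), beside -0.46 with it, and 1.33 for Hlf (padj = 0.00334), beside 1.29.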

How the results depend on the processing

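Of the 10 members, 6 passed under CR in BMAd-Pnpla2+/+ mice (5 when only the groups compared were fitted, where Meis1 had padj = 0.0574, and 5 to 6 with 1 sample left out), 3 in BMAd-Pnpla2-/- mice (4 with DESeq2, with only the groups compared and on the deposited matrix with edgeR or DESeq2, through Cd34, whose padj in these ran from 1.59e-04 to 0.0460, and 2 to 3 with 1 sample left out) and 6 averaged over both genotypes (5 to 7 with 1 sample left out). Also asking for an absolute log2 fold change over 1 left 2, 1 and 1. For Cd34 in BMAd-Pnpla2-/- mice the matrix sets strand-specific AL counts against strand-free CR counts. No alternative called a member in a genotype comparison or in the interaction. With 1 sample left out, Kit, Flt3, Hlf, Myb and Cd34 passed in BMAd-Pnpla2+/+ mice in all 14 fits (Kit at 0.76 to 1.09), Flt3 and Hlf in BMAd-Pnpla2-/- mice in all 14, and Kit in BMAd-Pnpla2-/- mice in none (0.44 to 0.71).

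Signs turned in values none of which passed, near 0 for Mecom, Gata2, Procr and Flt3 and further from it for Myb. Under CR in BMAd-Pnpla2+/+ mice Mecom (0.00) was -0.083 on the deposited matrix, -0.053 on reverse-strand counts, -0.0044 with size factors of DESeq2, -0.011 with no filter, -0.0031 with DESeq2 and -0.046 with DESeq2 on the matrix, an alternative chosen after seeing the data. Gata2 (0.02) was -0.015 on the matrix and -0.0012 with no filter. Procr in BMAd-Pnpla2-/- mice was 0.013 with total counts, and Flt3 between genotypes on CR -0.0020 with no filter. Myb between genotypes on CR (0.14) was -0.24 on the matrix and -0.26 with DESeq2 on it, and its interaction (0.22) -0.21 and -0.23. The matrix counts Myb on 1 strand in 11 samples and without strand in the other 3.

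With 1 sample left out the log2 fold change ran from -0.24 to 0.22 for Mecom and -0.073 to 0.12 for Gata2 under CR in BMAd-Pnpla2+/+ mice, and for Procr from 0.14 to 0.61 there and from -0.25 to 0.18 in BMAd-Pnpla2-/- mice. Between genotypes on AL it ran from -0.13 to 0.13 for Kit, -0.24 to 0.10 for Meis1, -0.039 to 0.39 for Procr, -0.079 to 0.39 for Slamf1, -0.14 to 0.045 for Gata2 and -0.17 to 0.030 for Myb. On CR it ran from -0.054 to 0.12 for Flt3, -0.33 to 0.14 for Mecom, -0.44 to 0.030 for Procr and -0.26 to 0.26 for Slamf1. The interaction ran from -0.25 to 0.092 for Hlf and -0.43 to 0.18 for Slamf1.

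Replicate numbers did not pair the samples: correlations of deviations from the group means were -0.56 to 0.54 (median -0.01, 19 pairs) for the same number and -0.68 to 0.60 (median -0.02, 54 pairs) for different numbers. With the replicate block 6, 3 and 6 members passed in the CR comparisons and 0 in the others, Mecom in BMAd-Pnpla2+/+ mice was -0.063, and Kit and Myb between genotypes on AL were -0.042 and 0.023.

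Over all genes, 4602 were called under CR in BMAd-Pnpla2+/+ mice, but 2742 with only the groups compared and 2228 without BMAd-Pnpla2+/+ CR replicate 3. In BMAd-Pnpla2-/- mice 2052 were called, but 3898 on the matrix (4625 with DESeq2) and 243 without BMAd-Pnpla2-/- CR replicate 3. Between genotypes on CR 2 were called, but 2451 on the matrix (3306 with DESeq2), 111 with no filter, 8 with total counts and 0 with only the groups compared. The interaction gave 0, but 678 on the matrix (1153 with DESeq2). Causes were not tested. Reverse-strand counts could not be used with BMAd-Pnpla2-/- CR, and fits of only the groups compared were not run for the interaction and the mean of both genotypes. Mecom and Procr rest on at most 86 and 97 reads a sample.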
